A study of Mus musculus with 12 samples.

Results

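The response of embryonic intestinal stroma to lipopolysaccharide (LPS) was set against that of adult stroma, culture by culture. All 12 of the 12 mRNAseq libraries of the series entered. They came from primary stromal cells of the small intestine of C57BL6/J mice, labelled intestinal myofibroblast, which had been plated with the kinase inhibitor Y27632 after the epithelium was shaken off. The 4 groups held 3 libraries each: cells of mid-gestation E14.5 embryos given LPS, E14.5 cells given PBS as the vehicle, adult cells given LPS and adult cells given PBS. LPS from E. coli O111:B4 was added for 6 h, at a concentration that the labels state as 10 µg/µl, to cells at passages 2-3. Each embryonic culture was made from 6 pooled embryos, and 3 adult mice supplied the adult cultures. No genotype or transgene differed between the groups, and the age of the adult mice was not given in the sources used here. The comparison addresses whether LPS acts differently on stroma of the developing and the mature gut. Here the LPS and PBS libraries with the same replicate number in their titles were taken as the treated and untreated part of 1 culture, which gave 3 embryonic and 3 adult cultures. The stage difference of a gene is its LPS change in embryonic cultures minus its LPS change in adult cultures, both as log2 fold changes.

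The libraries held 18850224 to 32672370 counts in genes, and 13038 of the 23329 listed genes were tested. CPM below are TMM-normalized counts scaled to library size, and a floor of 3 counts, for counting error only, was worth 0.0897 to 0.145 CPM. All 10 fibroblast markers and all 10 smooth muscle and myofibroblast markers were present in the cultures, with summed levels of 11398 to 27042 CPM and 14805 to 37365 CPM. Macrophage markers were present too, at summed levels of 239 to 3413 CPM in embryonic and 56.3 to 236 CPM in adult libraries. Endothelial markers reached 1786 to 1857 CPM in adult culture 2 and 376 to 406 CPM in adult culture 3, against at most 40.2 CPM elsewhere. In embryonic culture 2 the LPS library held 2.28 times the macrophage markers of the PBS library and 0.56 times the smooth muscle markers, whereas the other 5 cultures had ratios of 0.766 to 1.05 and 0.929 to 1.08. In a bulk culture, fewer cells of a type and less RNA per cell cannot be told apart.

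LPS is the outer membrane lipid of Gram-negative bacteria. It is bound by CD14 and handed to the receptor TLR4 and its partner MD-2 (encoded by Ly96). One arm of the receptor runs through the adaptor MyD88 to NF-kB, which switches on chemokines, cytokines and its own inhibitors. The other arm runs through the adaptor TRIF to the kinases TBK1 and IKK epsilon and the factor IRF3, and so to interferon beta. Secreted interferon signals back through a complex with STAT2 and IRF9, which binds interferon-stimulated response elements (ISRE) and switches on antiviral genes, the GBP and IRG families of GTPases and the machinery of antigen presentation.

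The LPS change was larger in embryonic cultures for 104 genes and larger in adult cultures for 6 (edgeR's quasi-likelihood interaction test with each culture as a block, Benjamini-Hochberg adjusted p under 0.05). Larger means more positive on the log2 scale, so a gene that fell further in embryonic cultures counts as larger in adult ones. The 104 were 0.798% of the genes tested, the 6 were 0.046%, and both together were 0.844%. Genes of the interferon program led the first set. Among 74 tested genes of 3 lists (interferon sensing and signaling, antiviral interferon-stimulated genes, GBP and IRG GTPases), 33 were called with a larger embryonic change, and 7 more called genes were in the list for MHC presentation. The lists were chosen with earlier results of these data known, so these counts describe the called genes and are no independent test. None of the 20 tested NF-kB subunits and feedback inhibitors was called, which says little about so short a list at 0.844% over all genes. Most of these rose in both stages. The fitted change was larger in embryonic cultures for 17 of the 20 (median stage difference 0.61).

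The plain LPS comparison shows the base from which these genes were drawn. In embryonic cultures 1229 genes rose (9.43%) and 407 fell (3.12%), and in adult cultures 611 rose (4.69%) and 197 fell (1.51%). Of the 493 genes that rose in both, 335 rose further in embryonic and 158 further in adult cultures, while 70 of them had a called stage difference. Pair differences (log2 CPM with LPS minus log2 CPM with PBS in 1 culture) did not overlap between the stages for 1259 genes with embryonic cultures higher (9.66%) and for 768 genes with adult cultures higher (5.89%).

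The 104 genes were mostly ones that adult stroma also raised, but less. In embryonic cultures 102 of them rose, 69 also rose in adult cultures, 31 had no adult call and 2 fell in adult cultures. The other 2 were not called in embryonic cultures and fell in adult cultures. The median LPS change of the 104 was 3.82 in embryonic and 1.21 in adult cultures on the log2 scale. By culture, the median pair difference was 3.59, 3.78 and 3.92 in the embryonic cultures and 1.16, 1.15 and 1.33 in the adult cultures. The difference lay at both ends. With PBS, 86 of the 104 had a lower mean level in embryonic cultures (median embryonic minus adult difference -0.70 in log2 CPM). With LPS, 90 had a higher mean level in embryonic cultures (median 1.70), and in 65 every embryonic LPS library lay above every adult LPS library. These levels are parts of the same contrast that called the genes, and the median over all tested genes was near 0 both with PBS (0.00083) and with LPS (0.0068). The call of 110 genes fell to 48, 42 and 34 when adult culture 1, 2 or 3 was left out, and 29 genes were called in each of the 6 fits that leave out a culture. Without the culture block no gene was called, with a smallest adjusted p of 0.968 and 293 genes at an unadjusted p under 0.05.

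**Figure D1:**
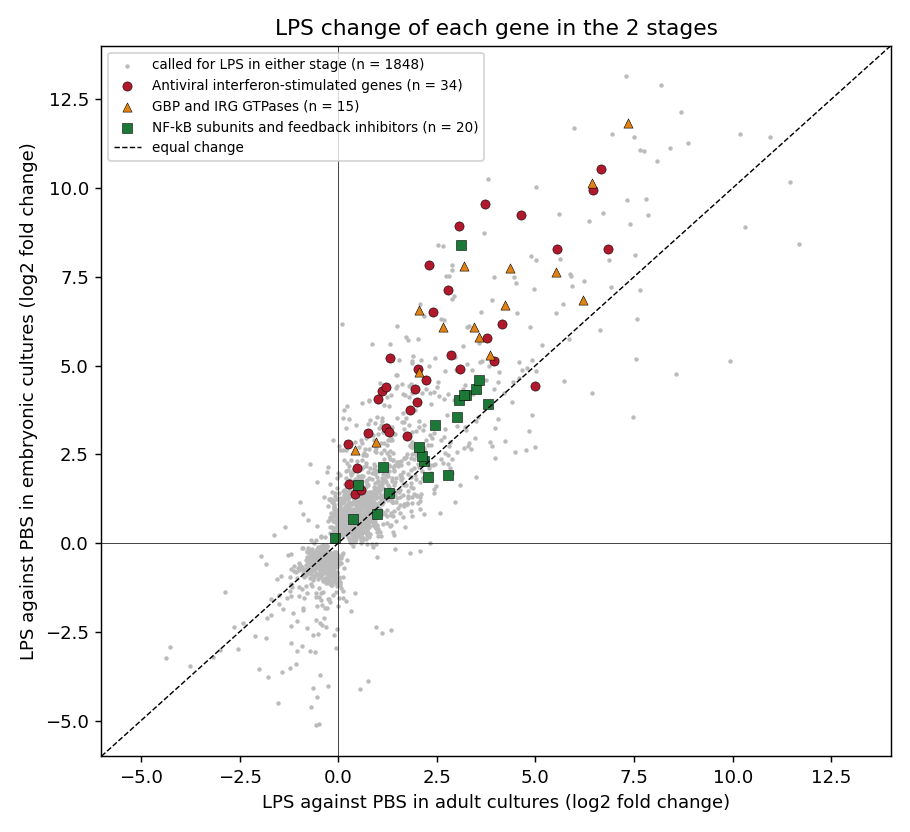
LPS change of each gene in adult cultures (horizontal axis, log2 fold change) against embryonic cultures (vertical axis, log2 fold change). Grey points are the 1848 genes called for LPS in either stage, of which 3 lie outside the plotted range, and the dashed line marks equal change. Antiviral genes (red circles) and GBP and IRG GTPases (orange triangles) lie above the line with 1 exception among the 34 and none among the 15, and 17 of the 20 NF-kB subunits and inhibitors (green squares) lie above it, at a median distance of 0.61 for the list, with Traf1 the farthest at 5.28.

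By role in the pathway, the genes that sense nucleic acids and carry the interferon signal are described first. Of 25 tested genes of this list, 22 rose in embryonic and 15 in adult cultures, and 7 were called with a larger embryonic change against the background of 0.798%. The median LPS change was 2.69 in embryonic and 0.97 in adult cultures, and the median stage difference was 1.24, beside 0.014 over all genes tested. The count of 7 fell to 4, 4 and 3 without adult culture 1, 2 or 3.

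Stat2 had the lowest p of all genes. It encodes a part of the complex that carries type I interferon signals to DNA. Its level went from 7.62, 5.67 and 19.97 CPM with PBS to 135, 103 and 386 CPM with LPS in embryonic cultures 1, 2 and 3. In adult cultures it went from 9.31, 17.2 and 12 to 26.7, 51.8 and 41.7 CPM. Every embryonic LPS library was above every adult one, although all cultures raised the gene. The pair differences of 4.14, 4.16 and 4.27 against 1.51, 1.59 and 1.79 left a wide gap between the stages, and the stage difference was 2.57 ± 0.11 (SE, n = 3 cultures a stage, adjusted p = 0.000218 in edgeR).

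Irf7, a factor that amplifies interferon production, rose by 5.91, 5.69 and 5.69 in embryonic pairs and by 0.97, 2.45 and 1.82 in adult pairs (log2 CPM). Its stage difference was 4.08 ± 0.34 (SE, edgeR adjusted p = 0.00199), and its level with LPS was 55.0, 77.3 and 268 CPM in embryonic against 10.5, 15.8 and 14.8 CPM in adult cultures, with no overlap.

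Ifih1, the cytosolic sensor MDA5 of long double-stranded RNA, rose by 4.13, 4.87 and 5.10 in embryonic and by 1.32, 1.47 and 1.68 in adult pairs, a stage difference of 3.23 ± 0.24. Tlr3, the endosomal receptor for double-stranded RNA, rose in embryonic cultures (3.15) and was not called in adult cultures (0.70), with a stage difference of 2.45 ± 0.33. For Irf5 and Ikbke the fitted change was also larger in embryonic cultures, but without a called stage difference. Irf5, a factor of the MyD88 arm, rose in both stages (2.59 and 1.32), and its stage difference of 1.27 ± 0.28 did not pass (edgeR adjusted p = 0.138). Ikbke, which encodes IKK epsilon, rose by 2.71 and 1.88, with a stage difference of 0.83 ± 0.23 (edgeR adjusted p = 0.269).

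Ifnb1, the gene for interferon beta, had no count in any PBS library. With LPS it had 1.33, 12.6 and 24.1 CPM in embryonic cultures and 1.11, 0.154 and 0.259 CPM in adult cultures. Relative to 3 counts per PBS library, LPS raised its mean at least 140.3-fold in embryonic and at least 4.26-fold in adult cultures. Embryonic culture 1 and adult culture 1 were close for this gene, and the other embryonic cultures lay far above the other adult ones. With both PBS groups at 0, the fit gave no usable stage difference (edgeR adjusted p = 1).

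**Figure D2:**
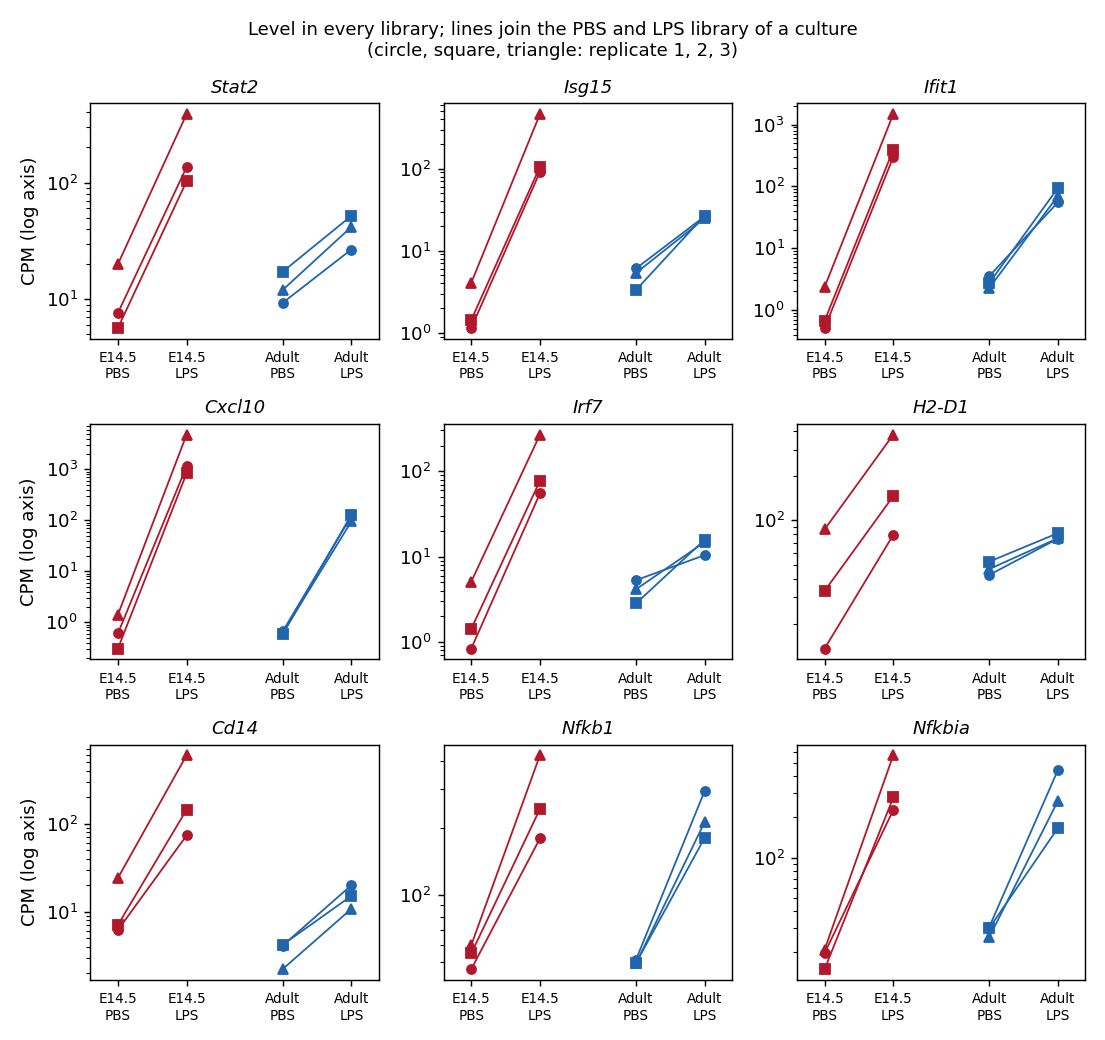
Level of 9 genes (vertical axis, CPM, log axis) in every library, with lines from the PBS to the LPS library of each culture, embryonic in red and adult in blue. For Stat2, Isg15, Ifit1, Cxcl10, Irf7 and Cd14 the 3 embryonic LPS libraries lie above the 3 adult ones, for H2-D1 embryonic culture 1 reaches only the adult level, and for Nfkb1 and Nfkbia the LPS libraries of the stages overlap.

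Antiviral interferon-stimulated genes held the most calls of any list. All 34 tested members rose in embryonic and 26 rose in adult cultures, and 19 had a called stage difference, each with the larger change in embryonic cultures. The same shares over all tested genes were 9.43%, 4.69% and 0.798%. The median LPS change was 4.74 in embryonic and 2.12 in adult cultures (2.01 with the 3 members at the floor in adult PBS set to their bounds), and the median stage difference was 2.39. By culture the list medians were 5.03, 4.78 and 4.40 in embryonic and 1.87, 2.24 and 2.17 in adult cultures. Pair differences did not overlap for 33 of the 34, with embryonic cultures higher, against 9.66% of all tested genes. With PBS the list lay a little lower in embryonic cultures (median -0.23 in log2 CPM, lower for 20 of 34), and with LPS 33 of 34 were higher there (median 2.77). The 19 calls fell to 11, 11 and 12 without adult culture 1, 2 or 3 and were 16 to 21 without an embryonic culture.

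Isg15, which encodes a ubiquitin-like protein that interferon induces, went from 1.15, 1.43 and 4.07 to 91.2, 105 and 463 CPM in embryonic cultures. In adult cultures it went from 6.08, 3.32 and 5.35 to 26.2, 26.8 and 24.8 CPM. Embryonic libraries were thus mostly below adult ones with PBS and all above them with LPS, and the stage difference was 4.10 ± 0.27 (SE, edgeR adjusted p = 0.000897). Usp18, the protease that removes ISG15 and dampens the interferon receptor, had a stage difference of 4.33 ± 0.33, from pair differences of 6.86, 7.22 and 7.05 against 1.98, 3.16 and 3.13.

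The IFIT family, whose proteins bind viral RNA and restrict its translation, held 3 of the named genes. Ifit1 had 0.512, 0.671 and 2.36 CPM with PBS and 299, 393 and 1476 CPM with LPS in embryonic cultures, against 3.55, 2.75 and 2.28 and then 55.5, 94.8 and 70.5 CPM in adult cultures. Ifit3 and the nearby I830012O16Rik (Ifit3b in RefSeq) had stage differences of 5.53 ± 0.42 and 5.88 ± 0.45, and that of Ifit1 was 4.59 ± 0.31. All 3 lie in the same region of chromosome 19 (Ifit3 at chr19:34583119-34588982, I830012O16Rik at chr19:34607530-34613403 and Ifit1 at chr19:34640889-34650009, GRCm38.p6). Ifit3 and I830012O16Rik are close copies. Only unique alignments were kept, so reads that match both equally would be left out, and the value of each alone is uncertain.

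Oasl1, a relative of the 2′-5′ oligoadenylate synthetases, was near the floor with PBS in embryonic cultures at 0.121, 0.0305 and 0.538 CPM and reached 65.9, 81.0 and 373 CPM with LPS. In adult cultures it went from 0.989, 0.482 and 0.545 to 8.86, 8.55 and 9.33 CPM. The adult LPS level of this gene was nearly the same in the 3 cultures and far below the lowest embryonic one, and the stage difference was 5.84 ± 0.42 (SE, edgeR adjusted p = 0.00119).

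A further set of genes rose in embryonic cultures with little or no adult change. Trim30d, of the TRIM family of ubiquitin ligases, went from 3.38, 1.95 and 8.64 to 35.3, 29.0 and 133 CPM in embryonic cultures, and from 7.66, 24.7 and 15.4 to 7.85, 27.5 and 18.6 CPM in adult cultures. Sp100, a nuclear body protein, had adult pair differences of 0.28, 0.18 and 0.38 and embryonic ones of 3.52, 3.90 and 3.13. Its level with LPS overlapped between the stages (10.0, 22.9 and 64.9 against 23.4, 18.1 and 23.5 CPM), and the embryonic PBS level was far below the adult one (0.814, 1.46 and 7.36 against 19.2, 16.0 and 18.1 CPM). Trim30d and Sp100 thus reached similar stage differences (3.59 ± 0.17 and 3.23 ± 0.21) from different levels.

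Parp9, an ADP-ribosyltransferase family member, rose by 4.42, 4.25 and 4.32 in embryonic pairs and by 1.84, 1.82 and 2.13 in adult pairs. Ifi204, a DNA-binding protein of the p200 family, rose by 4.79, 5.14 and 4.35 and by 1.5, 1.26 and 1.59. The stage differences were 2.41 ± 0.12 and 3.28 ± 0.22. Casp4, the mouse caspase that binds LPS inside the cell, rose by 4.69, 5.01 and 5.24 and by 2.41, 2.21 and 2.73 (2.76 ± 0.21), and its LPS level overlapped between the stages (7.92, 16.9 and 50.1 against 19.4, 26 and 21.6 CPM).

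**Figure D3:**
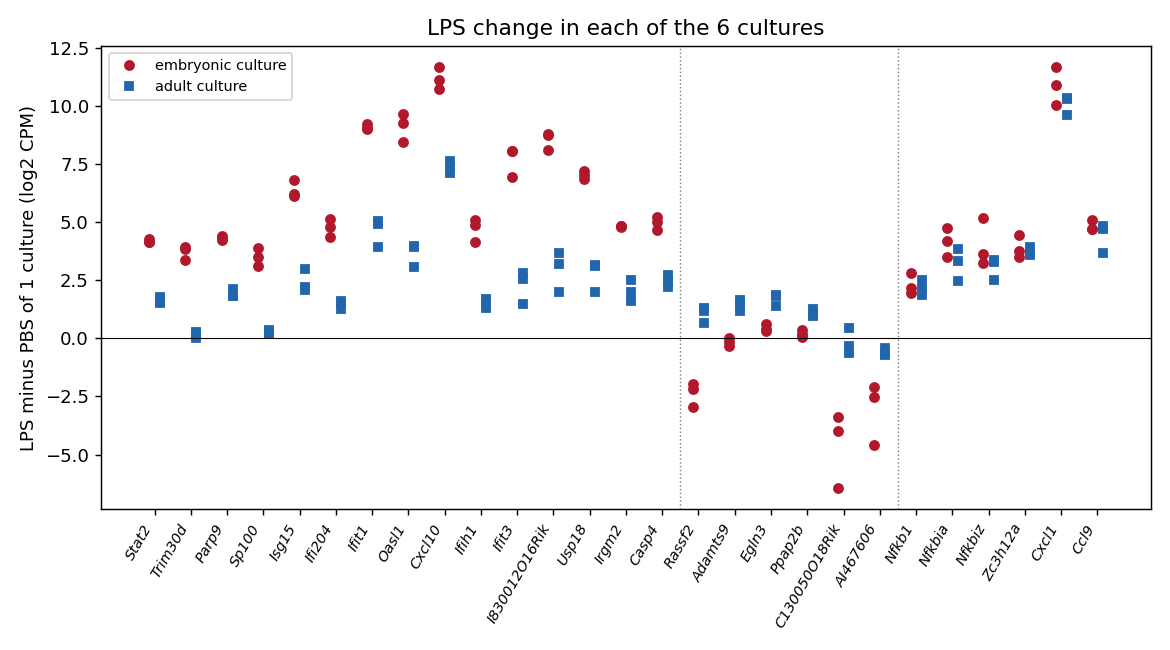
LPS minus PBS of each culture (vertical axis, log2 CPM) for the 15 genes of lowest p with a larger embryonic change (left of the first dotted line), the 6 genes with a larger adult change (middle) and 6 genes with no called stage difference (right; chosen after their values were seen). Red circles are the 3 embryonic and blue squares the 3 adult cultures. Lack of overlap was a condition for choosing the first 2 sets, and all 104 and all 6 called genes met it.

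Promoter sequence was read for these genes from RefSeq (GRCm38.p6), in windows from 250 bases before to 50 after each start. Windows matched 85 of the 104 genes with a larger embryonic change, 310 of the 423 that rose in both stages with no called difference, and 10340 of the 13038 tested. The ISRE core, searched as GAAANNGAAA on both strands, stood in 32 of the 85 (37.6%), in 24 of the 310 (7.74%) and in 385 of the 10340 (3.72%). The kB site bound by NF-kB, searched as GGGANTTTCC on both strands, stood in 3 of the 85 (3.53%), in 12 of the 310 (3.87%) and in 51 of the 10340 (0.493%). The 6 genes with a larger adult change all had a window, and none held either motif. A match is a description of these letters and not of binding. Stretches of 4 genes with a larger embryonic change and an ISRE core, and of 3 genes with a kB site that rose in both stages, are printed 5′ to 3′ in the gene's direction so that both motifs can be seen in place. Capitals mark the motif on either strand, and each stretch lies before the start used for its window. In Trim30d, whose annotated gene begins a little upstream of that start, the last 3 bases fall within the gene.
Stat2 (chr10:128270248-128270315, plus strand): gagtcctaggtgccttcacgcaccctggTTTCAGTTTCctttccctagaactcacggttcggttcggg
Trim30d (chr7:104507851-104507920, minus strand): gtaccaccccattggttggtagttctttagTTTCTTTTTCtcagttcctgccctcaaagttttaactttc
Isg15 (chr4:156200845-156200926, minus strand): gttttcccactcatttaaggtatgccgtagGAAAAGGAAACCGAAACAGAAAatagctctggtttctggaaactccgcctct
Ifit1 (chr19:34640755-34640843, plus strand): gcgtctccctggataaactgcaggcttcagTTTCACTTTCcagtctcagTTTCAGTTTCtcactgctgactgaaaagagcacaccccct
Nfkbia (chr12:55492648-55492706, minus strand): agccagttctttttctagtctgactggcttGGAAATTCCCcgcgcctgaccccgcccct
Cxcl1 (chr5:90891144-90891213, plus strand): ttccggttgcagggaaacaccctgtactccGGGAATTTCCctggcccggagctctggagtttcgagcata
Cxcl2 (chr5:90903772-90903841, plus strand): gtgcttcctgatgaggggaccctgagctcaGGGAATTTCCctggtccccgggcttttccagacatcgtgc

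In Isg15 the capitals cover 3 overlapping matches and in Ifit1 there are 2 separate ones. The ISRE genes shown are those of lowest p that gave such a stretch, and genes of lower p without one were passed over. The kB genes were picked by name, and Tnfaip3, also tried, gave no stretch. The 3 chosen kB genes encode an inhibitor that holds NF-kB in the cytoplasm (Nfkbia) and a pair of chemokines that draw neutrophils (Cxcl1 and Cxcl2).

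GBP and IRG GTPases, which attack the vacuoles of intracellular microbes, rose in embryonic cultures for all 15 tested members and in adult cultures for 11. The 7 called members all had the larger embryonic change, and the median stage difference was 2.64. Over all tested genes 9.43% rose in embryonic and 4.69% in adult cultures, and 0.798% were called with a larger embryonic change. List medians by culture were 5.96, 5.36 and 6.60 in embryonic and 3.00, 3.64 and 3.38 in adult cultures. All 15 had a pair difference above 0 in each of the 6 cultures. The 7 calls fell to 3 without adult culture 2 and to 2 without adult culture 3. Irgm2 had pair differences of 4.84, 4.83 and 4.78 against 1.61, 2.00 and 2.53, the tightest embryonic values among the 15 genes of lowest p, and a stage difference of 2.78 ± 0.21. Igtp (3.41 ± 0.29), Gbp7 (2.64 ± 0.31) and Gbp3 (2.47 ± 0.28) followed. Gbp3 rose strongly in adult cultures as well, from 2.67, 1.98 and 1.98 to 36.4, 56.3 and 36.6 CPM, and reached 76.5, 92.4 and 366 CPM in embryonic cultures.

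Genes of MHC presentation rose in 16 of 19 cases in embryonic and in 13 in adult cultures, and 7 had a called, larger embryonic change. The same shares over all tested genes were 9.43%, 4.69% and 0.798%. The median LPS change was 2.26 in embryonic and 0.94 in adult cultures. The 7 calls fell to 2, 2 and 1 without adult culture 1, 2 or 3. Called members belonged to the class I path. H2-D1 and H2-K1, the classical class I heavy chains, had stage differences of 1.54 ± 0.13 and 1.63 ± 0.21. H2-D1 had 13.6, 33.3 and 86.7 CPM with PBS and 79.5, 145 and 378 CPM with LPS in embryonic cultures, against 42.7, 52.5 and 46.7 and then 75.0, 81.8 and 75.6 CPM in adult cultures. Embryonic culture 1 started below the adult cultures and ended among them. Tap2, a subunit of the peptide transporter, went from 1.30, 3.05 and 7.83 to 17.1, 20.2 and 93.6 CPM, against 15.1, 18.2 and 14.7 and then 36.3, 37.9 and 38.4 CPM, with a stage difference of 2.10 ± 0.25. Embryonic cultures 1 and 2 thus stayed below the adult cultures with LPS. Nlrc5, the transactivator of class I genes, differed more, at 3.61 ± 0.41. These heavy chain genes belong to a family of near-identical copies, so their counts are uncertain.

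Cd274, which encodes the T cell inhibitor PD-L1, was the 1 called member of 15 costimulation and myeloid receptor genes, although 14 rose in embryonic and 9 in adult cultures. It rose by 6.54, 5.69 and 7.01 in embryonic and by 3.54, 3.65 and 3.50 in adult pairs, a stage difference of 2.88 ± 0.35 (edgeR adjusted p = 0.0105). Cd80, a T cell costimulator, had a stage difference of 1.40 ± 0.68 that did not pass (edgeR adjusted p = 0.622). Its embryonic pair differences were 1.12, 0.86 and 3.75 and its adult ones 0.64, 0.44 and 0.44. Tlr2, the receptor for bacterial lipoproteins, and Cd83, a maturation marker, were picked after their values were seen because they ran the other way without passing. Tlr2 rose by 3.93, 3.54 and 3.41 in embryonic and by 5.23, 4.36 and 4.98 in adult pairs (edgeR adjusted p = 0.0549).

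NF-kB subunits and feedback inhibitors mostly rose in both stages. Of 20 tested, 19 rose in embryonic and 16 in adult cultures. None had a called stage difference in edgeR's quasi-likelihood test, where 0.844% of all tested genes were called. In that test 5 of the 20 had an unadjusted p under 0.05, against 1163 of all 13038 genes. The likelihood ratio test called 1 of the 20, and DESeq2 and limma-voom called 0. The fitted LPS change was larger in embryonic cultures for 17 of the 20, with a median stage difference of 0.61, and the median LPS change was 2.58 in embryonic and 2.37 in adult cultures. The list medians by culture overlapped, at 2.50, 2.21 and 3.13 in embryonic and 2.64, 1.89 and 2.35 in adult cultures. Pair differences did not overlap for 1 of the 20, with embryonic cultures higher, against 9.66% of all tested genes. In other inflammatory lists this held for 9 of 23 chemokines, 12 of 25 cytokines and 7 of 15 costimulation and myeloid receptor genes. Adult cultures were higher without overlap for 0, 1 and 2 genes of those lists.

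Nfkb1, the p105 and p50 subunit, went from 46.6, 54.8 and 59.7 to 180, 243 and 424 CPM in embryonic and from 51.4, 49.6 and 49.4 to 294, 181 and 213 CPM in adult cultures. The groups overlapped at both ends, and the stage difference was 0.15 ± 0.25 (SE, edgeR adjusted p = 0.934). Nfkbia went from 19.7, 15.0 and 20.9 to 225, 278 and 571 CPM and from 30.8, 30.2 and 25.9 to 447, 166 and 264 CPM, with a stage difference of 0.94 ± 0.40 (edgeR adjusted p = 0.556). Traf1, an adaptor of TNF receptors, came nearest to a call within the list, at 5.28 ± 1.00 (edgeR adjusted p = 0.0752) from embryonic pair differences of 6.91, 6.87 and 8.68 and adult ones of 6.14, 2.09 and 2.86. Its PBS level was at or below 1.59 CPM in every library, and 6.14 rests on an adult library with no PBS count. Zfp36, which destabilizes cytokine mRNA had the next lowest p of the list, with a stage difference of 1.14 ± 0.41 (edgeR adjusted p = 0.457).

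**Figure D4:**
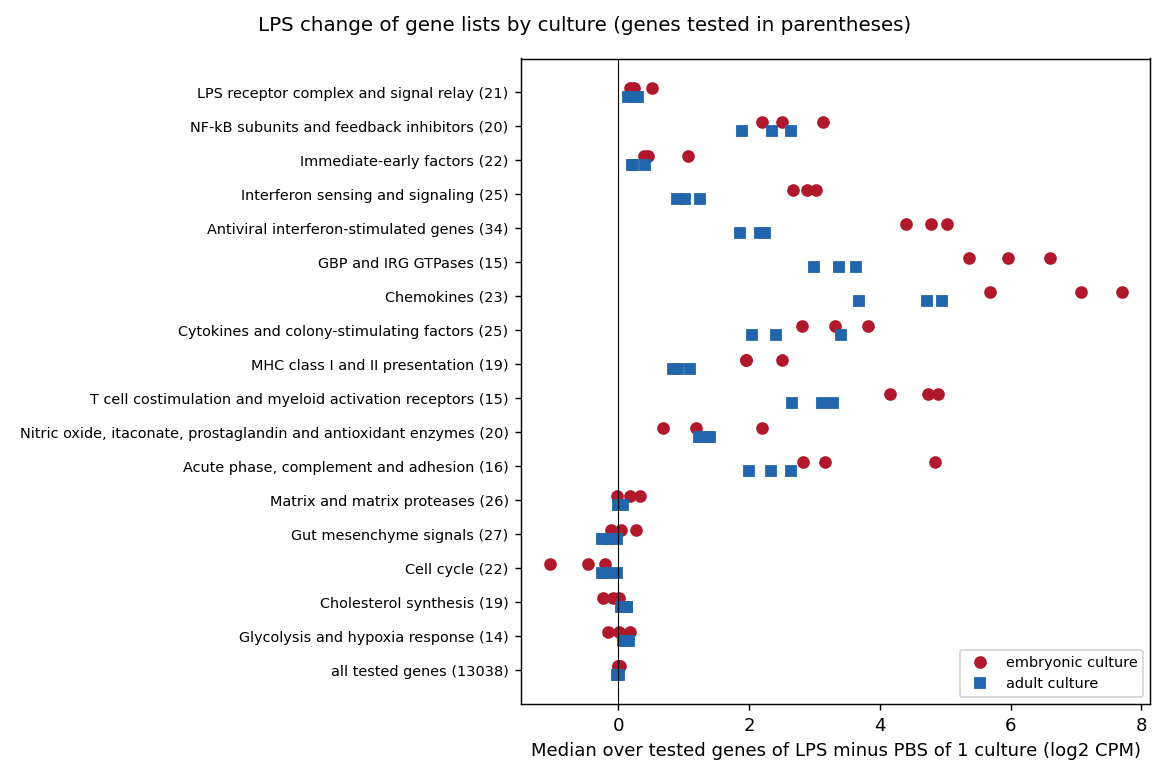
Median LPS minus PBS over the tested genes of each list (horizontal axis, log2 CPM) in the 3 embryonic (red circles) and the 3 adult cultures (blue squares), with the number of genes tested in parentheses. Embryonic and adult cultures separate widely for antiviral genes (4.40 to 5.03 against 1.87 to 2.24) and overlap for NF-kB genes. Lists outside the interferon program separate too, among them chemokines (5.69 to 7.70 against 3.68 to 4.96). Costimulation and myeloid receptor genes do so as well (4.15 to 4.88 against 2.66 to 3.29).

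Most genes of the LPS receptor and its relay were not called for LPS in either stage. Of 21 tested genes, 7 rose in embryonic and 3 in adult cultures, against 9.43% and 4.69% of all tested genes. The median LPS changes were 0.31 and 0.19. Pair differences did not overlap for 6 genes with embryonic cultures higher and 1 with adult cultures higher, against 9.66% and 5.89% of all tested genes. Cd14 was the 1 gene of the list with a called stage difference. It had 6.18, 7.04 and 24.1 CPM with PBS and 73.4, 144 and 601 CPM with LPS in embryonic cultures, and 4.10, 4.19 and 2.22 and then 19.9, 15.1 and 10.7 CPM in adult cultures. Embryonic libraries were above adult ones with either treatment, and the pair differences of 3.56, 4.34 and 4.64 against 2.26, 1.83 and 2.24 gave a stage difference of 2.09 ± 0.29 (SE, edgeR adjusted p = 0.0191). Tlr4 itself was not called in either stage, with a stage difference of 0.08 ± 0.19 (edgeR adjusted p = 0.958), and had 11.6, 14.7 and 25 CPM with PBS in embryonic against 39.1, 33 and 40.0 CPM in adult cultures. Ly96 had a stage difference of 0.15 ± 0.23. Myd88 rose in embryonic cultures (1.82) and was not called in adult cultures (0.56), but the difference of 1.26 ± 0.32 did not pass (edgeR adjusted p = 0.205).

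Chemokines rose by large amounts in both stages. Of 23 tested, 18 rose in embryonic and 18 in adult cultures, and the median LPS change was 7.21 in embryonic and 6.86 in adult cultures (7.15 and 4.67 with members at the PBS floor set to their bounds, 4 in embryonic and 7 in adult cultures). By culture the list medians were 7.08, 5.69 and 7.70 in embryonic and 4.96, 3.68 and 4.73 in adult cultures, with no overlap. Only Cxcl10, a chemokine that interferon induces and that draws T cells, had a called stage difference among the 23 genes. It went from 0.603, 0.305 and 1.41 to 1153, 838 and 4817 CPM in embryonic and from 0.659, 0.578 and 0.614 to 121, 128 and 95.2 CPM in adult cultures. Resting levels overlapped, every embryonic LPS library was far above every adult one, and the stage difference was 3.93 ± 0.29 (SE, edgeR adjusted p = 0.00119). Cxcl1, by contrast, went from 0.181, 0.122 and 0.0897 to 478, 200 and 523 CPM in embryonic and from 0.806, 0.482 and 0.852 to 1112, 729 and 722 CPM in adult cultures, where its level with LPS was higher. Its stage difference of 1.34 ± 0.41 did not pass (edgeR adjusted p = 0.345).

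Among 25 tested cytokines and colony-stimulating factors, 20 rose in embryonic and 15 in adult cultures. Tnfsf10, the death ligand TRAIL, was the 1 called member, at 5.84 ± 0.88 (SE, edgeR adjusted p = 0.0287). It had 0.0301, 0 and 0.12 CPM with PBS and 3.96, 14.1 and 36.3 CPM with LPS in embryonic cultures, against 0, 0.867 and 0.682 and then 0.847, 6.24 and 2.12 CPM in adult cultures. The PBS counts were close to or under the floor of 3 counts, so the size of this difference is poorly fixed. Tnf and Il1b, the classic inflammatory cytokines, reached very different levels without a called stage difference. Tnf had 240, 1037 and 3151 CPM with LPS in embryonic and 65.6, 9.47 and 27.4 CPM in adult cultures, and its stage difference was 1.90 ± 0.37 (edgeR adjusted p = 0.0843). Il1b had 324, 419 and 2816 CPM against 24.6, 4.67 and 13.3 CPM, with a stage difference of 2.34 ± 0.88 (edgeR adjusted p = 0.475). Both were also higher in embryonic cultures with PBS (Tnf at 0.331, 1.13 and 3.89 against 0.22, 0.0964 and 0.136 CPM), so that the fold changes of the stages lay closer together than the LPS levels.

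Other lists held 0 to 2 calls each. With 0.844% of all tested genes called, a count of 0 says little about lists of this length. Saa3, an acute phase protein, and C3, the central complement component, were called among 16 acute phase, complement and adhesion genes. Saa3 went from 0.0301, 1.31 and 0.329 to 15.9, 39.6 and 149 CPM in embryonic and from 46.9, 106 and 29.9 to 179, 446 and 139 CPM in adult cultures. C3 went from 0.784, 2.84 and 2.00 to 2.63, 44.4 and 62.1 CPM and from 172, 84.7 and 53.2 to 233, 149 and 114 CPM. In both genes the embryonic change was larger (4.67 ± 0.69 and 3.24 ± 0.53) and the embryonic PBS libraries all lay below the adult ones. Fgf7, a growth factor for epithelium and the 1 called gene of 27 gut mesenchyme signals, was of this kind too, at 0.0904, 0.152 and 0.269 and then 1.26, 0.898 and 1.90 CPM against 25, 27.0 and 53.2 and then 39.9, 45 and 87.8 CPM (2.25 ± 0.25). Embryonic PBS levels of Fgf7 were at or near the floor of 3 counts, so the size of its difference is poorly fixed. With LPS it stayed far below the adult level.

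Mmp13, a collagenase, was the 1 called gene of 26 for matrix and matrix proteases. It rose from 0.663, 1.65 and 3.77 to 118, 299 and 1585 CPM in embryonic and from 0.513, 1.45 and 0.307 to 15.0, 34.5 and 14.1 CPM in adult cultures (3.20 ± 0.48). Here the PBS levels overlapped and the LPS levels did not. Atf3, a stress-induced repressor and the 1 called gene of 22 immediate-early factors, rose in embryonic cultures (2.12) and was not called in adult ones (0.46), with a stage difference of 1.66 ± 0.26. The 20 genes for nitric oxide, itaconate, prostaglandin and antioxidant enzymes held no call in edgeR, with 4 at an unadjusted p under 0.05. Ptges, which makes prostaglandin E2, and Cybb, the catalytic part of the phagocyte oxidase, had the lowest p among them (1.43 ± 0.40 and 0.90 ± 0.31, edgeR adjusted p = 0.279 and 0.423).

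In all, 49 of the 104 genes were in a list and 55 were in none. The largest fitted difference was among the latter. Lad1, an anchoring protein of basement membranes, had 0.0904, 0.244 and 0 CPM with PBS and 4.52, 6.49 and 16.4 CPM with LPS in embryonic cultures, and stayed between 0.256 and 0.626 CPM in adult cultures (6.09 ± 0.98, SE, edgeR adjusted p = 0.0385). The resting levels were near the floor, and the embryonic LPS libraries were clearly above all others.

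A larger (more positive) change in adult cultures was called for 6 genes. Of these, 3 fell in embryonic cultures and had no adult call (Rassf2, C130050O18Rik and AI467606). Adamts9, Egln3 and Ppap2b rose in adult cultures and were well counted. Adamts9, a secreted protease that cuts proteoglycans, had 20.2, 15.6 and 22.7 CPM with PBS and 16.1, 15.6 and 20.1 CPM with LPS in embryonic cultures, and went from 14.2, 10.1 and 7.5 to 32.5, 28.5 and 23.9 CPM in adult cultures. It was called for LPS in adult cultures alone and ended above the embryonic level in every library, with a stage difference of -1.62 ± 0.17 (SE, edgeR adjusted p = 0.0055). Egln3, a prolyl hydroxylase that marks hypoxia-inducible factors for decay, rose in both stages, by 0.30, 0.42 and 0.63 in embryonic and by 1.85, 1.39 and 1.84 in adult pairs (-1.25 ± 0.17). Ppap2b, a lipid phosphate phosphatase, went from 70.5, 75.7 and 104 to 170, 152 and 203 CPM in adult cultures and was not called in embryonic ones, at 33, 39.6 and 76.8 and then 37.9, 51.4 and 80.8 CPM (-0.86 ± 0.12).

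Rassf2, of the RASSF family of Ras-association proteins, fell in embryonic cultures from 3.13, 4.30 and 25.6 to 0.631, 1.04 and 3.22 CPM. In adult cultures it had 0.953, 0.434 and 0.886 CPM with PBS and 2.47, 1.08 and 1.43 CPM with LPS, a change of 1.11 that was not called (edgeR adjusted p = 0.058). Its embryonic PBS levels ran in the order of the summed macrophage markers of the cultures (294, 554 and 3413 CPM), and the part of these cells in the result was not tested. The same order held for C130050O18Rik and nearly so for AI467606, both named by clone or expressed sequence. C130050O18Rik had 0.663, 1.04 and 5.98 CPM with PBS and no count with LPS in embryonic cultures, at least 23.6-fold lower relative to 3 counts per library, and was at 0.0432 to 0.183 CPM in adult cultures. AI467606 went from 0.723, 0.671 and 5.38 to 0.0701, 0.104 and 0.155 CPM in embryonic and from 0.476, 2.84 and 0.818 to 0.26, 1.78 and 0.605 CPM in adult cultures (-3.43 ± 0.59). Leaving out embryonic culture 2 raised the number of genes with a larger adult change from 6 to 25, and leaving out adult culture 1 or 3 lowered it to 2.

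Opposite calls in the stages were found for Fzd5 and Fam180a. Fzd5, a receptor for Wnt ligands, rose in embryonic cultures from 14.7, 17.0 and 21.0 to 19.5, 25.8 and 39.0 CPM and fell in adult cultures from 74.4, 48.2 and 57.7 to 33.7, 35.5 and 35.5 CPM, so that levels that were apart with PBS overlapped with LPS (1.40 ± 0.20, SE, edgeR adjusted p = 0.0252). Fam180a rose by 0.33, 0.56 and 0.45 and fell by 0.39, 0.54 and 0.69 in log2 CPM (1.01 ± 0.16, edgeR adjusted p = 0.0374). The stage difference of Fam180a was not called in any of the 6 fits that leave out a culture.

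Cell cycle genes ran the other way from the interferon lists without a called difference. Of 22 tested, 7 fell in embryonic and none fell in adult cultures, and 19 had the lower change in embryonic cultures (median stage difference -0.36), with 7 at an unadjusted p under 0.05 in edgeR. The list medians were -0.21, -0.46 and -1.04 in embryonic and -0.16, -0.02 and -0.25 in adult cultures, which overlapped in embryonic culture 1. Aurkb, a mitotic kinase, went from 4.46, 1.86 and 9.69 to 2.45, 1.14 and 2.56 CPM in embryonic cultures (-1.17 ± 0.34, edgeR adjusted p = 0.303). Mcm3, a part of the replicative helicase, had a stage difference of -0.97 ± 0.32 (edgeR adjusted p = 0.4). Cholesterol synthesis (19 genes, median stage difference -0.17) and glycolysis with the hypoxia response (14 genes, median -0.14) held no called difference in edgeR, with 3 and 0 at an unadjusted p under 0.05. Stard4, a sterol carrier, and Mvd, an enzyme of the mevalonate path, had the lowest p of the first list (-0.54 ± 0.16 and -0.55 ± 0.20). Hk1 and Bnip3, a hexokinase and a mitophagy receptor, had those of the second (0.30 ± 0.14 and -0.26 ± 0.14).

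Macrophage markers differed between cultures as well as between stages. Their summed level with PBS was 294, 554 and 3413 CPM in embryonic and 224, 68.0 and 73.5 CPM in adult cultures, and with LPS it was 239, 1264 and 2613 CPM and 236, 56.3 and 69.6 CPM. None of the 20 tested macrophage markers had a called stage difference in edgeR, where 0.844% of all tested genes were called. Of the 20, 2 had an unadjusted p under 0.05 in that test. For LPS itself, 5 of the 20 rose in embryonic cultures (Ptprc, Emr1, Fcgr1, Fcer1g and Sfpi1, by 1.07 to 2.31) and Cx3cr1 fell (-2.82), while edgeR called none in adult cultures, with 2 at an unadjusted p under 0.05. Embryonic culture 1 and adult culture 1 were closest by this sum, although Lyz2 alone made up 95.5 of the 224 CPM in the adult PBS library. Between their PBS libraries, Lyz2 (40.9 against 95.5 CPM) and Mertk (4.25 against 10.5 CPM) were lower in the embryonic one. The other markers were higher there, some clearly (Csf1r 35.7 against 17.8 CPM, C1qa 23.3 against 14.3 CPM, Ptprc 7.53 against 2.23 CPM) and Mrc1 barely (2.05 against 1.98 CPM). In these 2 cultures the median change of the antiviral list was 5.03 against 1.87. Across the embryonic cultures, whose macrophage markers with PBS spanned 294 to 3413 CPM, the same median ran from 5.03 to 4.40. Across adult cultures 1, 2 and 3, at 224, 68.0 and 73.5 CPM, the median was 1.87, 2.24 and 2.17. The levels with LPS of Stat2, Isg15, Ifit1, Cd14 and Cxcl10 were highest in embryonic culture 3, which had the most macrophage markers, and their pair differences were less spread. Whether macrophages contributed to the stage difference of the antiviral list or of single genes was not tested.

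**Figure D5:**
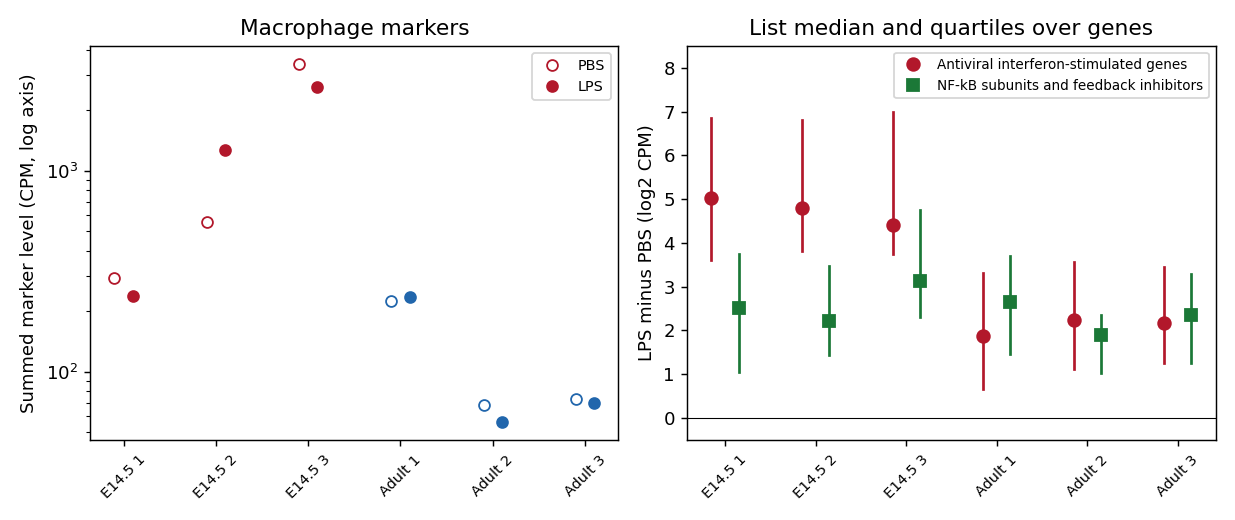
Left, summed level of 21 macrophage markers (CPM, log axis) in the PBS (open) and LPS (filled) library of each culture. Right, median and quartiles over genes of LPS minus PBS (log2 CPM) for 34 antiviral genes (red circles) and 20 NF-kB genes (green squares), where the antiviral median is 4.40 to 5.03 in the embryonic and 1.87 to 2.24 in the adult cultures.

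Over all genes, the size of the response differed less. The median absolute pair difference was 0.175, 0.198 and 0.270 in the embryonic cultures (mean 0.215 ± 0.0497, SD, n = 3) and 0.173, 0.151 and 0.153 in the adult cultures (0.159 ± 0.0120, SD, n = 3). Every embryonic value was above every adult one, embryonic culture 1 by very little, and a 2-sided exact permutation test gave p = 0.1, the smallest that 3 cultures against 3 allow. The difference of 0.0557 was 0.0325 without embryonic culture 3, 0.0295 from group means in place of pairs and 0.101 without normalization factors.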

How the data were processed

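Poly(A)-selected, stranded libraries were sequenced as single-end 75 bp reads. The authors trimmed the reads, mapped them to GRCm38.p6 (mm10) with STAR, kept unique alignments with at most 1 mismatch, and deposited raw counts per gene, without normalization, on either strand and on each strand apart. The counts on the strand of the library chemistry were used here. Unassigned reads (8.69% to 9.85% of each library) were left out.

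Genes with CPM above 0.5 in every library of at least 1 group were kept. TMM normalization and the quasi-likelihood test of edgeR 4.0.16 (R 4.3.3) were used with 1 block per culture (replicate number within a stage) and 1 LPS term per stage. The contrast of both terms is the stage difference, and p-values were Benjamini-Hochberg adjusted over all 13038 genes. SE is the absolute log2 value over the square root of F. Log2 CPM used a prior count of 2. The sources used here do not say that same-numbered libraries share a culture. Deviations of same-numbered LPS and PBS libraries from their group means correlated at 0.61 to 0.85, so the numbers were taken to pair them. Those of other numbers correlated at most at 0.022. Deviations from a group mean cancel out, so high same-number values push the other-number values down, and these add no separate evidence. Deposited file names carry a leading part that same-numbered titles share, in both stages alike, and in some a trailing number that differs from the title; the titles were followed. Replicates of a group differed by more than counting noise.

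The genes described and the 17 gene lists and 11 marker lists were chosen with earlier results of these data known. Named genes are up to 15 of lowest p in each direction, the 5 largest in each, up to 4 called genes of a list or else the 2 of lowest p, genes with opposite calls, and 14 genes of the LPS pathway. The first of these sets was limited to called genes whose pair differences do not overlap between the stages. Nfkbia, Nfkbiz, Zc3h12a, Cxcl1, Cxcl2, Ccl9, Tlr2 and Cd83 were added after their values were seen. Values of 1 gene that the rule names are not reported here. Of the 13038 genes, 12959 matched RefSeq.

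The alternatives were no block, other blocks, the likelihood ratio test, DESeq2 1.42.0, limma-voom (limma 3.58.1), other scaling and filters, a stricter threshold, unstranded counts and each culture left out. Counts per list under each alternative were added after the data were seen. The scripts were tested on simulated data with seed 1. Plots used matplotlib 3.10.9 under Python 3.11.15.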

Additional observations from a re-analysis of the deposited data

Results flagged for a closer look

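The LPS change differed between the stages, by edgeR's quasi-likelihood interaction test, for 110 genes, and the named ones among them are given here as embryonic minus adult log2 values. Of the 15 genes of lowest p with the larger embryonic change, Stat2 had 2.57, Trim30d 3.59, Parp9 2.41, Sp100 3.23, Isg15 4.10, Ifi204 3.28, Ifit1 4.59 and Oasl1 5.84. Cxcl10 had 3.93, Ifih1 3.23, Ifit3 5.53, I830012O16Rik 5.88, Usp18 4.33, Irgm2 2.78 and Casp4 2.76. The genes with the larger (more positive) adult change were Rassf2 at -3.63, Adamts9 at -1.62, Egln3 at -1.25, Ppap2b at -0.86, C130050O18Rik at -8.81 (fitted against an LPS group with no counts, and so no measure of size) and AI467606 at -3.43. Rassf2, C130050O18Rik and AI467606 fell in embryonic cultures and were not called for LPS in adult cultures. Among the largest differences were Lad1 at 6.09 and Tnfsf10 at 5.84, both from few PBS counts. From the gene lists, Irf7 had 4.08, Tlr3 2.45, Igtp 3.41, Gbp3 2.47 and Gbp7 2.64. Nlrc5 had 3.61, Tap2 2.10, H2-D1 1.54, H2-K1 1.63 and Cd274 2.88. Cd14 had 2.09, Atf3 1.66, Saa3 4.67, C3 3.24, Mmp13 3.20 and Fgf7 2.25 (from few embryonic PBS counts). Fzd5 (1.40) and Fam180a (1.01) had opposite calls in the stages.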

How the results depend on the processing

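The 110 calls rest on the replicate block. Without it 0 genes were called in either direction (293 at an unadjusted p under 0.05), with 358 LPS calls in embryonic and 79 in adult cultures, and with a replicate block shared by both stages there were 0 (335 unadjusted, smallest adjusted p 0.293), 380 and 109. The common biological coefficient of variation was 0.126 with and 0.340 without the block. The likelihood ratio test called 346 (300 embryonic higher, 46 adult higher, 1273 for LPS in adult cultures) and DESeq2 270 (233 and 37). Larger adult changes numbered 11 without normalization factors and 15 without a filter. CPM over 1 in every library left 50 calls (47 and 3), a filter that removed 47 of the 110 genes from the test. At adjusted p under 0.01 there were 45 (43 and 2), with 755 and 347 for LPS. Leaving out 1 culture gave 34 to 164 stage calls (32 to 139 and 2 to 25), 1049 to 1989 for LPS in embryonic and 232 to 1243 in adult cultures. Where tested, all 110 kept their sign under each alternative. Stage calls numbered 105 to 126 with the other scalings, limma-voom, unstranded counts or LPS effects by number. The cause of these shifts was not tested.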
